A study of Homo sapiens with 6 samples.

Results

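Receptors of the activin, TGF-beta and BMP family were compared in HCT116 cells with and without induction of an inserted gene. This is a human colorectal cancer line with microsatellite instability. The labels give no time of induction. Every probe set whose RefSeq accession mapped to ACVR1, ACVR1B, ACVR2A, ACVR2B, ACVRL1, TGFBR1, TGFBR2, TGFBR3, BMPR1A or BMPR2 was taken, which gave 13 probe sets for 10 genes out of 1259 probe sets in the table. ACVR1B had 4 probe sets and each of the other 9 genes had 1. The 6 arrays form 2 groups of 3 that share the line and treatment with activin A, a ligand of the receptor that ACVR2A encodes. One group received doxycycline to switch on wild-type ACVR2, as the titles name it, and the other did not. The source labels list ACVR2, TGFBR2 and AIM2 together as inducible genes, so the identity of the inserted gene rests on the titles. HCT116 is a single established line, doxycycline was never given to cells lacking the inserted gene, and no sample lacked activin A. Effects of the drug and of the induced gene therefore cannot be told apart. Nothing in the labels says that replicates were separate cultures, so p-values reflect the spread among these samples alone, and that spread may be technical.

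These receptors work as complexes at the cell surface. A dimeric ligand brings type II receptor kinases, which are active without ligand, together with type I receptors, which the type II kinases phosphorylate. The type I receptor then phosphorylates SMAD proteins that enter the nucleus and regulate transcription. In colon epithelium TGF-beta and activin are known to restrain growth. Colorectal tumours with microsatellite instability often carry frameshift mutations in TGFBR2 and ACVR2A, 2 type II receptor genes with repeats of a single base in their coding sequence.

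The data gave no receptor probe set that differed between cells with and without doxycycline beyond the spread between arrays. What stood out was the spread itself: 7 receptors (ACVR2A, ACVR2B, TGFBR2, BMPR2, ACVR1, BMPR1A and TGFBR3) varied by 0.54 to 1.05 log2 units over the 6 arrays and did so in the same way, nearly all of it among the arrays without doxycycline. TGFBR1, ACVRL1 and the 4 ACVR1B probe sets stayed within 0.08 to 0.33 log2 units. The ACVR2A probe set, which carries the name of the inserted gene, read no higher with the drug.

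The upstream sequences of ACVR2B, TGFBR2 and BMPR1A are shown because these 3 receptors had the closest array patterns around TGFBR2, as described further on. Each line holds the 250 bases before the first annotated start of the gene on the forward strand of GRCh38.p14, from RefSeq. The windows are chr3:38453640-38453889 for ACVR2B, chr3:30606106-30606355 for TGFBR2 and chr10:86755513-86755762 for BMPR1A. Capitals mark matches, on either strand, to the GC box (GGGCGG), the CCAAT box (CCAAT) and the TATA box (TATAAA).
ACVR2B: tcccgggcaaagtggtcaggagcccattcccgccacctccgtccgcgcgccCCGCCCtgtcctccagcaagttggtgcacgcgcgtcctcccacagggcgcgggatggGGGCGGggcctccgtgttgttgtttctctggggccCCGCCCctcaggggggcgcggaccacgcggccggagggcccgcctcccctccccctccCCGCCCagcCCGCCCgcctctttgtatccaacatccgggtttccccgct
TGFBR2: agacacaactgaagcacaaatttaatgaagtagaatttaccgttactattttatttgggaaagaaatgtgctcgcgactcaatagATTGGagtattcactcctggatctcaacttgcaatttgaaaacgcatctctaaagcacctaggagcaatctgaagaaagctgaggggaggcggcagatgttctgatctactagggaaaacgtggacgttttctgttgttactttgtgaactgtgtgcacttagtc
BMPR1A: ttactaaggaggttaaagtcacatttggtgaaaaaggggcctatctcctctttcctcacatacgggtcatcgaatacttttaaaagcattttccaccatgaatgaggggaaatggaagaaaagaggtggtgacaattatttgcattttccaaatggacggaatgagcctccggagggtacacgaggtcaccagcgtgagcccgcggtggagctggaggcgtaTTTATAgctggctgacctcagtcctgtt

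The 3 windows differed in composition, and any relation of the windows to the array patterns was not tested. ACVR2B was 74.0% G and C with 5 GC boxes, and no CCAAT or TATA match lay in it. TGFBR2 was 40.8% G and C and held 1 CCAAT match, and BMPR1A was 47.2% G and C and held 1 TATA match. Of 35116 windows of the same length in the RefSeq promoter table, 42.6% held a GC box, 32.0% a CCAAT box and 10.7% a TATA box. A window lying wholly before the gene was found for 7 of the 10 receptor genes, of which 4 held a GC box: ACVR2B, BMPR2, ACVR1 and ACVR1B. The remaining windows lie inside a longer annotated transcript (ACVR2A, TGFBR3), and ACVRL1 was not matched. The 35116 windows were not limited to those lying before a gene. These matches describe letters in a window and not a bound factor. Whether transcription begins at the first annotated start in these cells was not tested.

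All 4 type II receptors had lower means with doxycycline, none past the threshold, and ACVR2B and TGFBR2 gave the largest differences of the family. ACVR2A, which binds activins and related ligands, read 8.15, 8.02 and 8.08 log2 units with doxycycline for replicates 1, 2 and 3, and 8.25, 8.07 and 8.70 without. Replicate 2 without doxycycline lay inside the range of the treated arrays, and only replicate 3 stood well above it. The difference of -0.26 (SE 0.16) had a 95% interval of -0.66 to 0.15 (limma, adjusted p = 0.71), and the exact two-sided permutation p was 0.3, where 0.1 is the smallest that 3 against 3 arrays allow. The upper end of that interval equals a 1.11-fold rise of this probe set with doxycycline. Whether its probes match the inserted sequence is unknown here, so the values do not check the labels. Leaving out untreated replicate 3 gave a difference of -0.08, and leaving out untreated replicate 2 gave -0.39.

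ACVR2B, the closest relative of ACVR2A and also an activin receptor, had the largest difference of the 13. It read 8.75, 8.70 and 8.86 with doxycycline and 9.36, 8.80 and 9.71 without, again with replicate 2 among the treated arrays. The means were 8.77 ± 0.08 with and 9.29 ± 0.46 without doxycycline (SD, n = 3 each), a difference of -0.52 (SE 0.23), or 1.43-fold higher without the drug. The 95% interval ran from -1.09 to 0.06 (limma, adjusted p = 0.673), and the exact two-sided permutation p was 0.2. The difference became -0.31 without replicate 3 of the untreated arrays and -0.77 without replicate 2, still short of the threshold (limma, adjusted p = 0.103). ACVR2A and ACVR2B, like TGFBR1 and ACVRL1 below, are read by probe sets of the s_at class, which in the Affymetrix convention can match more than 1 transcript. Whether that convention holds on this custom array is unknown here.

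TGFBR2, the type II receptor that binds TGF-beta, read 9.37, 9.21 and 9.38 with doxycycline and 9.76, 9.21 and 10.04 without. Replicate 2 without doxycycline equalled the lowest treated array to 2 decimals, while the other 2 lay above all treated ones. The difference was -0.35 (SE 0.21), with a 95% interval of -0.88 to 0.18 (limma, adjusted p = 0.704). It was -0.16 without replicate 3 of the untreated arrays and -0.58 without replicate 2.

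BMPR2, the type II receptor for BMPs, had the widest spread of the family. It read 9.43, 9.29 and 9.41 with doxycycline, and 9.46 and 8.95 for replicates 1 and 2 without; untreated replicate 3 lay 0.62 above the mean of the treated arrays. The untreated arrays therefore lay on both sides of the treated ones, and the difference was -0.09 (SE 0.26; limma, adjusted p = 0.918). It turned to 0.17 without replicate 3 of the untreated arrays and was -0.35 without replicate 2, so its direction is not settled.

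**Figure D1:**
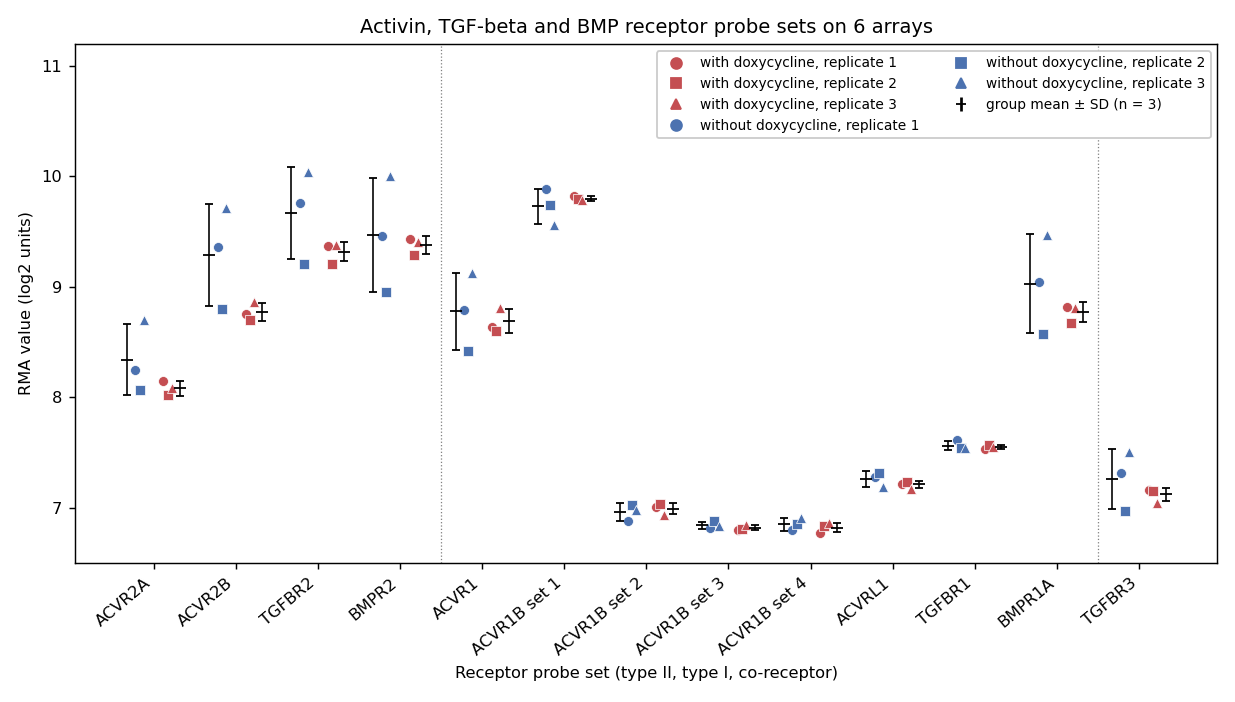
RMA values (log2 units, vertical axis) of the 13 receptor probe sets on 6 arrays, with colour for the group, symbol for the replicate and black bars for the group mean ± SD (n = 3). In 7 receptors the untreated arrays (blue) spread far wider than the treated ones (red), with replicate 3 at the top and replicate 2 at the bottom. Heights of different probe sets are not comparable, and the 4 ACVR1B sets stand in the order in which the text describes them.

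Of the type I receptors, BMPR1A and ACVR1 varied like the type II receptors, while ACVR1B, TGFBR1 and ACVRL1 did not share that pattern. BMPR1A, the main BMP type I receptor, read 8.82, 8.67 and 8.81 with doxycycline and 9.04, 8.57 and 9.47 without. Its difference of -0.26 (SE 0.23; limma, adjusted p = 0.73) became -0.04 without replicate 3 of the untreated arrays and -0.49 without replicate 2. ACVR1, a type I receptor that serves BMPs and can also form complexes with activin, read 8.64, 8.60 and 8.81 with doxycycline and 8.79, 8.42 and 9.13 without. Its difference of -0.09 (SE 0.18; limma, adjusted p = 0.872) turned to 0.08 without replicate 3 of the untreated arrays and was -0.27 without replicate 2. In both receptors the treated arrays sat between untreated replicates 3 and 2.

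ACVR1B encodes the type I partner of the activin type II receptors. Its probe set for transcript NM_004302.3 read 9.82, 9.80 and 9.79 with doxycycline and 9.89, 9.74 and 9.56 without, so here replicate 3 was the lowest array. The difference was 0.07 (SE 0.09; limma, adjusted p = 0.762), with a 95% interval of -0.14 to 0.29. It was -0.01 without replicate 3 of the untreated arrays, 0.15 without replicate 1, and -0.03 with array weights, so the direction was not settled. The SD was 0.02 with and 0.16 without doxycycline, and all 3 treated arrays lay within 0.03 log2 units of each other. This set was not flat: its range over the 6 arrays was 0.33, above the median of 0.217 over all probe sets. The remaining ACVR1B probe sets, an at and an x_at set for NM_020327.2 and an at set for NM_020328.2, differed by 0.03, -0.02 and -0.03. All 4 sets had 95% intervals that held 0. The last 2 read near the lower quartile of the arrays (6.85 to 6.89), where the share of background is unknown because the table has no detection calls.

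TGFBR1, the type I receptor for TGF-beta, hardly moved. It read 7.53, 7.57 and 7.55 with doxycycline and 7.61, 7.54 and 7.54 without. The difference was -0.01 with a 95% interval of -0.10 to 0.08 (limma, adjusted p = 0.925). For the values of this probe set, that interval spans changes up to 1.07-fold lower and 1.05-fold higher. The sign of the difference turned, to 0.01, without replicate 1 of the untreated arrays or with arrays centred on their medians. ACVRL1, a type I receptor best known from endothelial cells, read 7.21, 7.23 and 7.17 with doxycycline and 7.28, 7.31 and 7.19 without. Its difference was -0.05 with a 95% interval of -0.17 to 0.06 (limma, adjusted p = 0.73). It was -0.09 without replicate 3 of the untreated arrays and -0.03 without replicate 2.

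TGFBR3, or betaglycan, is a membrane proteoglycan with a short cytoplasmic tail and no kinase, which presents TGF-beta to TGFBR2 and also binds inhibin. It read 7.16, 7.15 and 7.04 with doxycycline and 7.31, 6.97 and 7.50 without. The untreated arrays again lay on both sides of the treated ones, and the difference was -0.14 (SE 0.14; limma, adjusted p = 0.734). Without replicate 3 of the untreated arrays it was -0.02, and without replicate 2 it was -0.29.

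**Figure D2:**
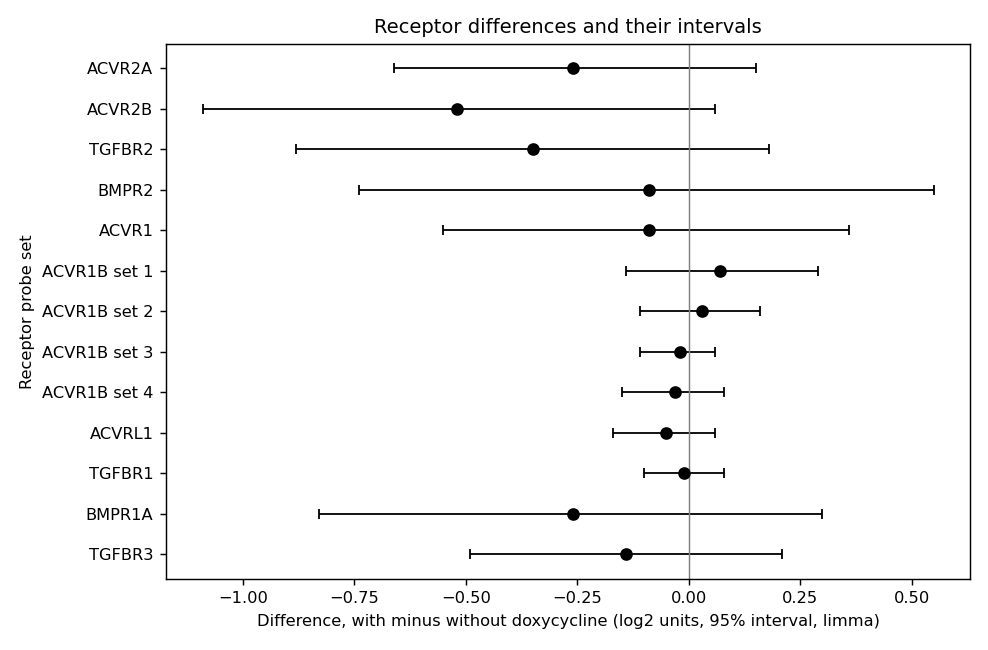
Difference with minus without doxycycline (log2 units, horizontal axis) for each receptor probe set, with its 95% interval from limma. All 13 intervals hold 0; ACVR2B reaches from -1.09 to 0.06, while TGFBR1 reaches only from -0.10 to 0.08.

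Counted together, 0 of 13 receptor probe sets passed an adjusted p of 0.05 with limma, as did 0.0% of all probe sets, and 0 of 13 had an unadjusted p under 0.05, against 7.78% of all. In 0 of 13 did the 3 arrays of one group lie wholly beyond those of the other, whereas 15.8% of all probe sets did. Lower values with doxycycline were seen in 11 of 13, against 54.6% of all, with a median difference of -0.09. Over all probe sets the median was -0.00813. With arrays centred on their medians 10 of 13 receptor probe sets and 554 of all 1259 had lower values. The share with lower values is not a count of independent events, since the 7 variable receptors rise and fall on the same arrays. The median was -0.02 without replicate 3 of the untreated arrays and -0.27 without replicate 2. With replicate 2 left out, ACVR2A, ACVR2B, TGFBR2, BMPR1A and TGFBR3 had an unadjusted p under 0.05, 5 of 13 where that fit gave 20.5% of all probe sets, and none passed after adjustment.

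**Figure D3:**
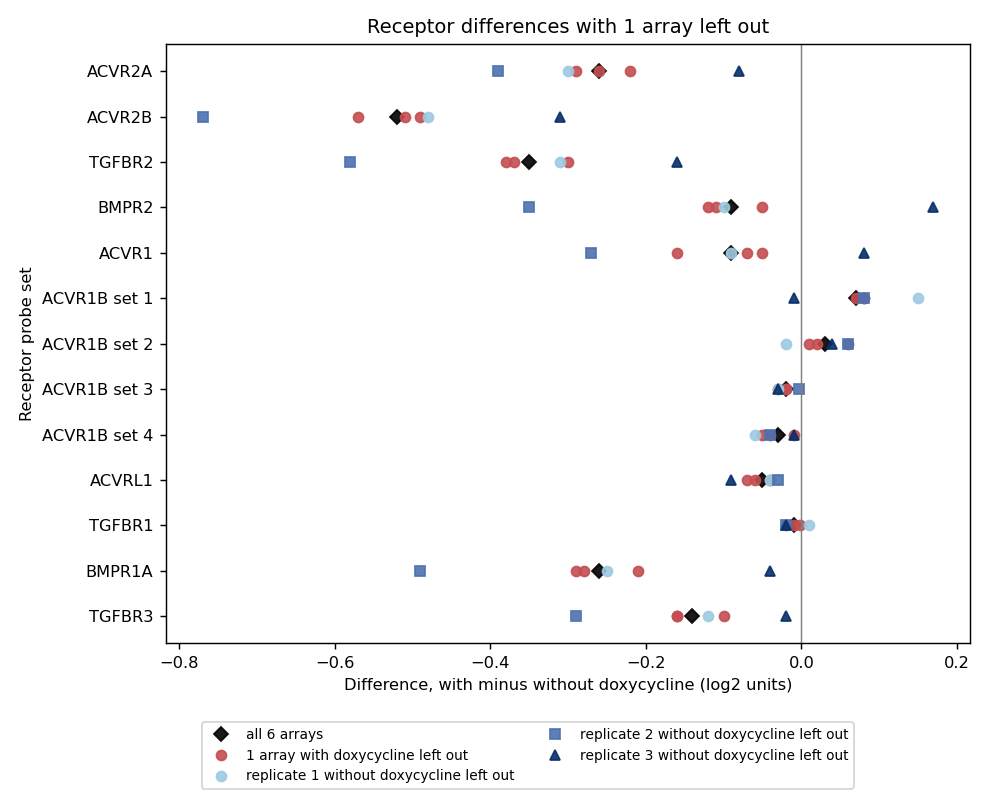
Difference with minus without doxycycline (log2 units, horizontal axis) for each receptor probe set with all 6 arrays (black diamonds) and with 1 array left out (other symbols). Leaving out replicate 3 without doxycycline moves the 7 variable receptors to the right, BMPR2 to 0.17, and leaving out replicate 2 moves them to the left, ACVR2B to -0.77.

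A shared array pattern was seen in 7 of the 13 receptor probe sets and not in the other 6. The 7 variable receptors were those with a range of at least 0.4 log2 units over the arrays, a boundary set after their values were seen; the widest of the other 6 probe sets had a range of 0.33 and the narrowest of the 7 had 0.54. Such a range was reached by 31.4% of all probe sets. In all 7 the untreated arrays stood in the order replicate 3, then 1, then 2 from high to low, and in 0 of the other 6; over all probe sets 21.5% had that order. Untreated replicate 3 was the highest of the 6 arrays in 8 of 13 receptor probe sets, against 26.0% of all. Of the 395 probe sets with such a range, 43.3% had that order and 33.2% the opposite one. Relative to the mean of all 6 arrays, the 7 receptors stood 0.31 to 0.68 higher on untreated replicate 3, 0.04 to 0.33 higher on replicate 1, and 0.14 to 0.47 lower on replicate 2. The median deviation of all probe sets on these arrays was -0.02, 0.02 and 0.02.

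The treated arrays were close to each other. The SD without doxycycline was larger than that with it in 13 of 13 receptor probe sets, against 77.1% of all probe sets. In the 7 variable receptors the ratio of these SDs ran from 3.12 for ACVR1 to 6.83 for BMPR2. The largest ratio of the 13 lay outside them, at 10.3 for the NM_004302.3 set of ACVR1B, from SDs of 0.16 and 0.02. The median SD of the 13 was 0.271 without and 0.0646 with doxycycline, and over all probe sets it was 0.0902 and 0.0457. Apart from replicate 3, the other untreated arrays also differed in these receptors. Replicate 1 exceeded replicate 2 by 0.19 log2 units in ACVR2A, 0.34 in TGFBR3, 0.36 in ACVR1 and 0.47 in BMPR1A. The gap was 0.51 in BMPR2, 0.55 in TGFBR2 and 0.56 in ACVR2B. Of all probe sets, 14.4% showed a gap of at least 0.19 in that direction. That bound is the smallest gap of the 7, which were picked for a wide range, so the share is not a test. Untreated replicate 3 also stood apart across the whole table, correlating with the other 5 arrays at 0.982 to 0.991 over probe sets, where those 5 correlated with each other at 0.995 to 0.999. Its part in the receptor differences is given above by the values without it, and what sets it apart was not tested.

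**Figure D4:**
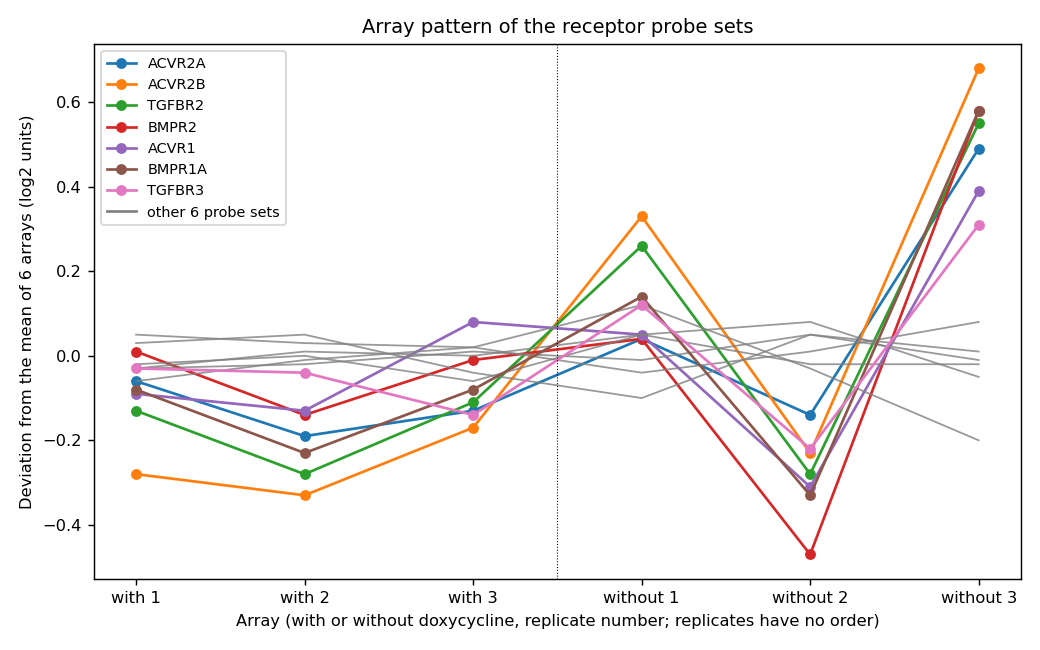
Deviation of each receptor probe set from its own mean over 6 arrays (log2 units, vertical axis) on each array (horizontal axis), coloured for the 7 receptors with a range of at least 0.4 and grey for the other 6 probe sets. The coloured lines peak on untreated replicate 3 (0.31 to 0.68) and dip on untreated replicate 2 (-0.47 to -0.14), while the grey ones stay between -0.20 and 0.12; lines join arrays only to guide the eye.

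How alike these patterns are was measured by the root mean square difference between deviations over the 6 arrays, where 0 means identical. The deviations were not scaled, so the measure depends on the size of the spread as well as on its shape. Among the 21 pairs of the 7 receptors it ran from 0.06 to 0.23 log2 units with a median of 0.14. TGFBR2 and BMPR1A were the closest pair at 0.06, and ACVR2B and TGFBR2 differed by 0.10. ACVR2A was closer to BMPR1A (0.10) than to ACVR2B (0.18), the receptor whose ligands it shares. The pattern was not particular to receptors. The 3 genes nearest to TGFBR2, among 291 genes of sufficient spread, were SLC35B4, a nucleotide sugar transporter (0.036), HSP90AA1, a cytosolic chaperone (0.039), and TCEA1, a transcription elongation factor (0.046), with BMPR1A in place 8. HSP90AA1 read 11.62, 11.57 and 11.68 with doxycycline and 12.06, 11.48 and 12.40 without, with replicate 2 lowest and replicate 3 highest as in TGFBR2.

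For ACVR2B the nearest of 226 genes were EEF1A1, a translation elongation factor (0.066), SMC3, a cohesin subunit (0.067), and CHST15, a sulphotransferase (0.068). For ACVR2A the nearest of 378 were the histone acetyltransferase gene KAT7 (0.049), the chondroitin synthase gene CHSY1 (0.063) and WNT16, a Wnt ligand (0.065). None of these 9 genes is a receptor of the family. The likeness is a description over 6 arrays that share 1 outlying member, and the genes compared were those with an SD of at least 0.5 times that of the receptor.

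Other receptors of the family were few on the array and differed little between the groups. BMPR1B, a BMP type I receptor, was at -0.03 (SE 0.04). It read below the lower quartile of the arrays, where signal cannot be told from background. AMHR2, the receptor of anti-Müllerian hormone, was at 0.06 (SE 0.06). Of 13 SMAD genes and regulators listed, 0 were measured, so the step after the receptors is not analysed here. Over the pathway lists as a whole 35 genes were measured; 23 had lower values with doxycycline and 0 passed (limma, adjusted p of 0.05), where 55.2% of 927 named genes had lower values. With arrays centred on their medians 18 of the 35 had lower values.

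The ligands were mixed. Of ligands that use ACVR2A or ACVR2B 6 were measured. Of these 2 were higher and 4 lower, and their median was -0.02. The order of replicates 3, 1 and 2 was seen in 0 of them, against 21.5% of all probe sets. INHBA, which encodes the subunit of activin A itself, differed by -0.06 (SE 0.04) and read below the lower quartile of the arrays; GDF11 was at 0.14 (SE 0.12) and INHBB at 0.04 (SE 0.04). Of the TGF-beta ligands, TGFB1 read 9.25, 9.05 and 9.40 with doxycycline and 8.29, 9.34 and 8.66 without. Replicate 2 was its highest untreated array, where TGFBR2 had its lowest, but replicate 1 and not 3 was the lowest for TGFB1. The full reverse order, replicate 2 above 1 above 3, was seen in 31.6% of all probe sets and not in TGFB1. Its difference was 0.47 (SE 0.27; limma, adjusted p = 0.692). TGFB2 and TGFB3 were at -0.05 and -0.01.

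Of 13 BMP and GDF ligands measured, 6 were higher and 7 lower, and 2 of them had an unadjusted p under 0.05, against 7.34% of all genes. The order of replicates 3, 1 and 2 was seen in 2 of the 13, against 21.5% of all probe sets. These were BMP6 and, within a few hundredths of a log2 unit, BMP5, which was named after its values were seen. BMP4 read 10.84, 10.78 and 10.63 with doxycycline and 11.18, 11.16 and 10.91 without, a difference of -0.33 (SE 0.10; limma, adjusted p = 0.477). All its untreated arrays lay above the treated ones, and replicate 3 was its lowest untreated array. BMP8B was at -0.17 (SE 0.05) and BMP6 at -0.12 (SE 0.08). Among 4 secreted antagonists, 1 was higher and 3 lower. NOG, which binds BMPs and blocks their receptors, read 7.57, 7.57 and 7.63 with doxycycline and 7.30, 7.43 and 7.22 without, a difference of 0.27 (SE 0.06; limma, adjusted p = 0.477). FST, encoding the activin-binding protein follistatin, was at -0.02 and CHRD at -0.05.

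Of 32 genes listed as known to respond to TGF-beta or activin, 8 were measured. Their median was -0.15, 1 being higher and 7 lower; 3 had an unadjusted p under 0.05, beside the same 7.34%, and 0 passed. LIF, a cytokine of the interleukin-6 family, read 10.79, 10.83 and 11.12 with doxycycline and 11.52, 11.47 and 11.18 without. Its groups did not overlap, and the difference was -0.48 (SE 0.13; limma, adjusted p = 0.477). VEGFA, an angiogenic factor, was at -0.22 (SE 0.08) and PDGFB at 0.24 (SE 0.09). In 3 of the 8 the untreated arrays had the order of replicates 3, 1 and 2. That order was seen in 21.5% of all probe sets and in 43.3% of those with a range of at least 0.4.

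Markers of the line and of other cells were thinly covered. Of 13 colon epithelium markers 3 were measured, MUC1 (8.68 ± 0.05 with and 8.80 ± 0.08 without doxycycline), MUC2 (7.27 ± 0.03 and 7.29 ± 0.04) and LGALS4 (7.30 ± 0.05 and 7.30 ± 0.03; SD, n = 3 each). The array medians lay between 7.61 and 7.65. Fibroblast, endothelial, leukocyte and neural lists had 4, 2, 3 and 2 genes measured. The log2 values of the fibroblast list summed to 27.94 to 28.16 with and 27.75 to 29.59 without doxycycline. Its wide range came with VCAN, a matrix proteoglycan at 10.39 on untreated replicate 3 and 8.62 on replicate 2, while LUM stayed between 5.96 and 6.04. VCAN also stands on the list of genes known to respond to TGF-beta or activin. The part of other cells in the receptor values was not tested.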

How the data were processed

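The authors deposited log2 expression values from RMA (version not given), per the submitters' processing notes; RMA corrects background, quantile normalizes arrays and summarises each probe set. Biotin-labelled cRNA was prepared from 0.5 ug of total RNA, per the labels' protocols. The array is a custom glycogene chip, and its scanner files were not analysed. Symbols came from the RefSeq accession in each identifier, version dropped, and a RefSeq table for GRCh38.p14; 1043 of 1259 (82.8%) received 1 symbol, covering 927 genes. No build is named for the array, so probe sets were given no coordinates; those printed belong to RefSeq's promoter windows.

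Groups of 3 arrays, assigned from the titles, were tested by limma (3.58.1, under R 4.3.3; lmFit, eBayes, two-sided), adjusted by Benjamini-Hochberg over 1259 probe sets at 0.05, without a block or a filter. Intervals are 95% from the moderated fit; the median half-width was 0.152 log2 units over all probe sets. A listed gene is represented by its probe set with the highest mean. The fit was tested on simulated data. Those had independent Gaussian noise and the same spread in both groups, so they do not cover the unequal spread of these arrays. Named genes are all receptors, up to 3 genes of each list with the smallest raw p, and the 3 genes nearest in pattern to ACVR2A, ACVR2B and TGFBR2. Members and lists were chosen with earlier results of these data known. The alternatives were a replicate block, each replicate left out, median centring, repeated quantile normalization, array weights, an intensity trend, a filter on dim probe sets and, for lists, every probe set counted.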

Additional observations from a re-analysis of the deposited data

How the results depend on the processing

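Under all 12 alternative fits 0 receptor probe sets passed, the smallest adjusted p being 0.103 (limma). The number of receptor probe sets at an unadjusted p under 0.05 was 0 with all arrays, 1 with the replicate block (ACVR2B; limma, adjusted p = 0.715), 2 with array weights (ACVR2B and TGFBR2) and 1 with an intensity trend (ACVR2B), where 7.78%, 6.43%, 19.5% and 8.1% of all probe sets did so; with 1 replicate left out it ran from 0 to 5, and the share of all from 3.57% to 20.5%. The block changed no other call. Deviations of same-numbered arrays correlated at -0.147, -0.0428 and -0.157, and those of differently numbered arrays at -0.169 to 0.212. These values show no likeness by number. They cannot tell whether same-numbered arrays shared a day or culture, because most probe sets hardly vary and 1 array stands apart. With 1 replicate left out, 10 to 11 receptor probe sets had lower values with doxycycline, and differences ran from -0.35 to 0.17 for BMPR2, from -0.27 to 0.08 for ACVR1, from -0.01 to 0.15 for the NM_004302.3 and from -0.02 to 0.06 for the NM_020327.2 at set of ACVR1B, and from -0.02 to 0.01 for TGFBR1. TGFBR1 was at 0.01 after median centring and 0.0024 after repeated quantile normalization, and the NM_004302.3 set was at -0.03 with array weights, whose estimation stopped before its tolerance was reached and which gave untreated replicate 3 a weight of 0.198. With array weights 1 of all 1259 probe sets passed. The filter on dim probe sets left 24 of the 35 pathway genes, 15 of them lower, because fewer genes were tested, and it removed 2 ACVR1B sets. No scaling moved the median of all probe sets by over 0.1. Only 3 arrays a group limit the precision, and without detection calls dim probe sets cannot be told from background.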
